A study of Saccharomyces cerevisiae with 36 samples.

Results

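Heat-stressed budding yeast of the IDRm strain was examined for which transcripts sediment and which stay in solution. The comparison sets 2 libraries of pellet (insoluble) RNA against 2 libraries of soluble RNA, all from IDRm cells held for 10 min at 42 °C, and these 4 libraries are part of 36 in the series. They were selected by their labels for strain, temperature and fraction. IDRm cells are Saccharomyces cerevisiae of the W303 Ade+ background whose DED1 allele is labelled Ded1_IDRm and carries the fluorescent tag mCherry. The other groups used here were pellet and soluble RNA of IDRm cells after 10 min at 30 and 40 °C, each with 2 libraries. Pellet and soluble RNA of WT cells, which carry tagged Ded1 in the same background, was used after 10 min at 42, 30 and 40 °C, again with 2 libraries each. The WT libraries at 30 and 40 °C entered the joint fit, the insoluble share and the ranges of levels over all temperatures. Those at 30 °C also gave the strain differences at 30 °C. Total RNA of IDRm and WT cells, again 2 libraries a group, was used for the estimate of the insoluble share and for heat induction. Both strains carry the tag, so no untagged cells were compared. The labels do not say what the letters IDRm stand for, how the allele was changed, or how the pellet was spun down. Each strain is represented by 1 genotype, grown as duplicate cultures that were split over the 3 temperatures. The p-values rest on the spread between replicate libraries, pooled over 12 groups of both strains. Libraries that come from the same culture are treated as independent in the main fit.

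Ded1 is a DEAD-box RNA helicase that helps the small ribosomal subunit scan the 5' leader of mRNAs. In heat-stressed yeast, Ded1, the poly(A)-binding protein Pab1 and many mRNAs collect in condensates that sediment on centrifugation, while the bulk of translation stops and mRNAs of heat shock proteins go on being translated. An mRNA can also sediment because it carries many ribosomes, is bound to a membrane or is large, and sequencing of pellets does not separate these forms.

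The 2 pellet libraries held 11975009 and 13730247 counts and the 2 soluble libraries 6542746 and 6306981, against 4934241 to 13730247 over the 24 pellet and soluble libraries fitted together. Levels are given as CPM, the usual counts scaled to library size, with TMM factors. Log2 CPM of the replicates correlated at 0.986 for the pellets and 0.977 for the soluble libraries, and pellet with soluble at 0.762 to 0.853. The replicates differed more here than in most groups: a chi-square of their counts over genes, per degree of freedom, was 55.0 for the pellets and 42.3 for the soluble libraries, against 3.63 to 18.8 in the other groups except WT soluble RNA at 42 °C at 68.5. Heat left its mark in total RNA as labelled, since the disaggregase gene HSP104 was higher at 42 °C than at 30 °C by 4.63 and the Hsp70 gene SSA4 by 6.85 on the log2(CPM + 1) scale. DED1 itself cannot check the strain label, because the counts hold no allele sequence. DED1 (YOR204W, chromosome XV, 722911 to 724725) had 1498 and 1558 CPM in the pellets, against 1424 and 1378 CPM in the soluble libraries, a log2 difference of 0.13 ± 0.13 (SE) that was not called (adjusted p = 0.4). DED1 was called in other settings in opposite directions, higher with the GC trend removed (0.42, adjusted p = 0.00328) or without TMM scaling (0.33, adjusted p = 0.00642) and lower with the length trend removed (-0.58, adjusted p = 0.00126).

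After TMM scaling, the numbers of genes higher and lower in pellet RNA were similar, and many differed by wide margins. Of 6141 genes tested, 4830 (78.7%) were called, meaning a Benjamini-Hochberg adjusted p under 0.05 in edgeR's quasi-likelihood test, with 2534 (41.3%) higher and 2296 (37.4%) lower in pellet RNA. By at least 2-fold, 1698 (27.7%) were higher and 1538 (25.0%) lower. Without TMM scaling 2814 genes were called higher and 1950 lower, so the balance of the directions depends on the scaling. The median log2 fold change of pellet over soluble level was 0.10 over all genes. Libraries were scaled within themselves, so each value compares a transcript with the rest of its own library, and a higher level in the pellet does not say that most molecules of a gene were there.

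Long genes were high in the pellet and short genes high in solution. The 5787 genes with a coding length were put into 8 groups of 715 to 732 genes by that length. In the shortest, of 51 to 450 bases, the median log2 fold change was -1.19, with 14.2% of genes higher and 62.4% lower in pellet RNA. From there on the medians of the groups by increasing length were -1.22, -0.67, -0.31, 0.05, 0.62, 1.10 and 1.94. In the longest, of 2589 to 14733 bases, 671 of 723 genes (92.8%) were higher and 12 lower. Across genes, coding length and the log2 fold change had a Spearman rho of 0.65 (Pearson's r = 0.64, n = 5787 genes measured in the same 4 libraries). From replicate 1 alone rho was 0.66 and from replicate 2 alone 0.65. GC content of the coding sequence had a rho of -0.15.

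**Figure D1:**
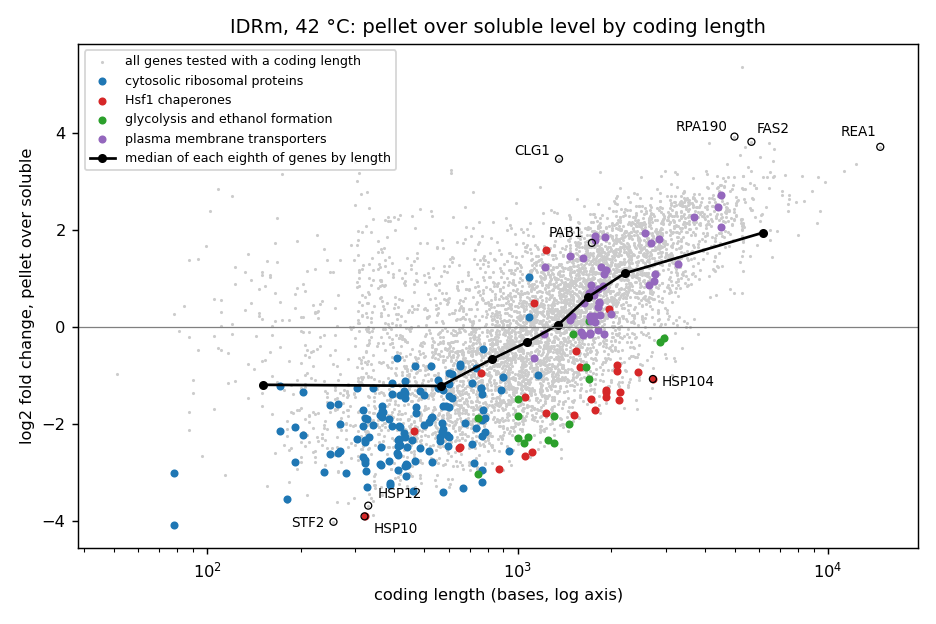
Log2 fold change of pellet over soluble level in IDRm cells at 42 °C against coding length in bases (log axis); each grey point is a gene, coloured points are members of 4 gene lists, circled genes are named in the text, and the black line joins the medians of 8 length groups. The medians run from -1.19 in the shortest group to 1.94 in the longest, and the named genes spread widely around that line.

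Of the 8 genes highest in the pellet by the naming rule, 7 are long and encode large proteins of varied function. RPA190 (YOR341W, chromosome XV, 960987 to 965981), the largest subunit of RNA polymerase I, had 2694 and 3267 CPM in the pellets, against 187 and 206 CPM in the soluble libraries. That is 15.1-fold higher, or 3.92 ± 0.17 on the log2 scale (adjusted p = 1.66e-12). FAS2, the alpha subunit of fatty acid synthase, had 5887 and 7076 CPM in the pellets, against 457 and 465 CPM in the soluble libraries (log2 3.81 ± 0.19). In both genes each pellet lay above each soluble library by more than 10-fold. Next came GLT1, glutamate synthase (3.79 ± 0.16), REA1, a giant ATPase of ribosome assembly (3.71 ± 0.23), and ACC1, acetyl-CoA carboxylase (3.66 ± 0.17). RPO21, the largest subunit of RNA polymerase II, was at 3.55 ± 0.19 and SEC7, a guanine nucleotide exchange factor of the Golgi, at 3.50 ± 0.17. Their coding lengths were 4995 bases for RPA190 and 14733 for REA1, with FAS2, GLT1, ACC1, RPO21 and SEC7 in between.

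CLG1, the eighth of the highest named genes, was the exception in length. It encodes a cyclin-like protein that binds the kinase Pho85, in 1359 bases (YGL215W, chromosome VII, 87981 to 89339). CLG1 had 135 and 141 CPM in the pellets, against 12.6 and 12.4 CPM in the soluble libraries, 11.0-fold higher (3.46 ± 0.19, adjusted p = 8.69e-12). Its value lay 3.44 above that of genes of its length (a smooth curve of the log2 fold change over length), and no other gene among those called in the fit with length removed, with a mean of at least 32 CPM, lay as far above the curve. REA1, by contrast, lay at -0.05 from the curve. CLG1 was also high in IDRm pellets at 30 °C (2.41) and 40 °C (3.21) and in WT pellets at 42 °C (3.27).

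The genes lowest in the pellet were short, and most of them are known as stress or mitochondrial genes. STF2 (YGR008C, chromosome VII, 508110 to 508364, minus strand), a small hydrophilic protein linked to the mitochondrial ATP synthase, had 71.4 and 41.4 CPM in the pellets, against 981 and 842 CPM in the soluble libraries. It was 16.2-fold lower (-4.02 ± 0.36, adjusted p = 3.32e-08). HSP12, a membrane-stabilising stress protein, had 121 and 74.4 CPM in the pellets, against 1419.5 and 1091 CPM in the soluble libraries (-3.68 ± 0.52, adjusted p = 1.38e-05). Pellet replicate 2 was the lowest library in both, and no pellet reached a soluble library. HSP10, the mitochondrial co-chaperonin, was at -3.90 ± 0.29, the cytochrome bc1 subunit QCR8 at -3.62 ± 0.30 and CYC7, a cytochrome c of stressed or oxygen-poor cells, at -3.59 ± 0.38. ZEO1, a peripheral plasma membrane protein, had 312 and 117 CPM in the pellets, against 3503 and 2793 CPM in the soluble libraries (-3.88 ± 0.34). TMA10, a ribosome-associated protein, was at -3.61 ± 0.54 and HOR7, a small stress-induced membrane protein, at -3.60 ± 0.36. Set against the curve over length, STF2 was at -2.87 and HOR7 at -2.65.

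Shown here are the coding sequences of STF2, the lowest of these 8 genes, and of HOR7, picked as the shortest of the 8. They are those of the R64 reference (strain S288C, from RefSeq), 5' to 3', with the start and stop codons in capitals. STF2 has 255 bases (chrVII:508110-508364, minus strand) and HOR7 180 bases (chrXIII:774752-774931, plus strand).
STF2: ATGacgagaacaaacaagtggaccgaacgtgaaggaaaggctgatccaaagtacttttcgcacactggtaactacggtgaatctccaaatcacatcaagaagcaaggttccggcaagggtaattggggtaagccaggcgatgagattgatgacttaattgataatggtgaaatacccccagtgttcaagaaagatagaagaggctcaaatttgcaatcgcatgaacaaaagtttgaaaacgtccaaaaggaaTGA
HOR7: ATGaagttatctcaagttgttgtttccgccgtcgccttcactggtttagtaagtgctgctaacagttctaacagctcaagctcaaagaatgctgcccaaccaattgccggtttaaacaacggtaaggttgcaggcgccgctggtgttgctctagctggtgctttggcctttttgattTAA

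**Figure D2:**
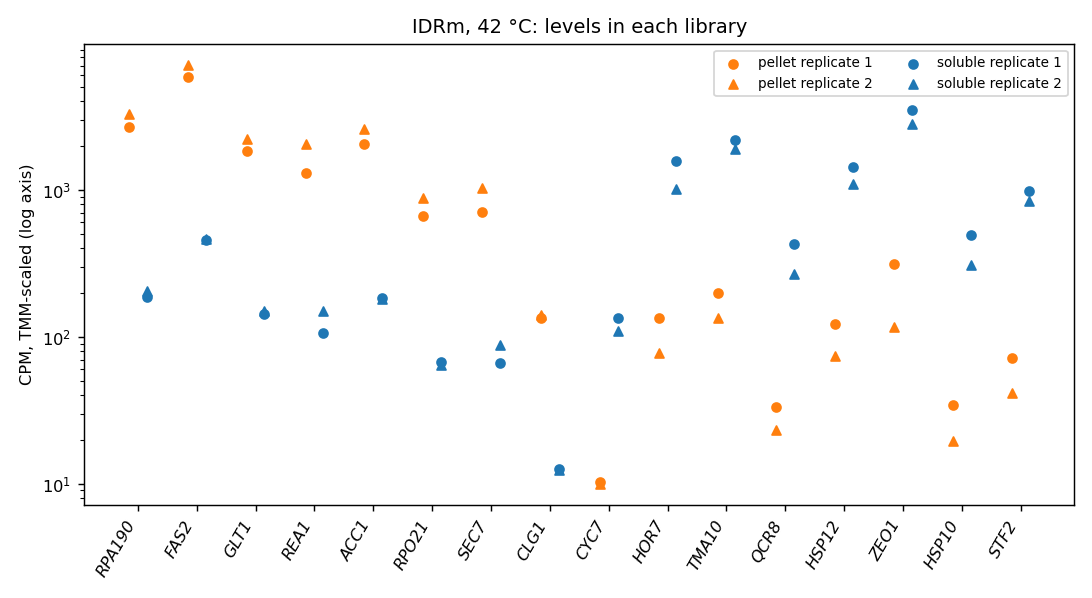
Levels in CPM (TMM-scaled, log axis) of named genes in each of the 4 IDRm libraries at 42 °C, pellets left of soluble libraries, 1 symbol a replicate. RPA190 sits at 2694 and 3267 CPM in the pellets, against 187 and 206 CPM in the soluble libraries, and STF2 the other way round.

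Gene groups were described by their members' counts and by the median of their log2 fold changes, beside the median of 0.10 over all genes. With the trend over length removed from the fit, 2163 genes (35.2%) were higher and 2057 (33.5%) lower in pellet RNA, and counts of this second fit are named as such. Genes of ribosomes, respiration and protein breakdown were mainly lower in the pellet. Of 133 cytosolic ribosomal protein genes tested (138 listed), 129 were lower and 1 higher, with a median of -2.05, and in the second fit 93 were lower and 4 higher. Their summed levels were 28443 and 18033 CPM in the pellets, against 116832 and 71224 CPM in the soluble libraries, so the replicates also differed from each other. RPL29 was at -3.55 ± 0.74 and RPL9A, which shares near-identical sequence with a paralog and is uncertain for that reason, at -3.40 ± 0.33. Of 10 histone genes 9 were lower and 0 higher (median -2.06), with HHT1, a histone H3 gene with a near-identical copy, at -3.09 ± 0.26. Subunits of the respiratory chain had 29 of 34 lower and 2 higher (median -1.79), of the proteasome 31 of 32 lower and 1 higher (median -1.67), and of mitochondrial ribosomes 53 of 68 lower and 7 higher (median -1.27). In the second fit these lists were closer to the rest. Histones had 7 lower and 2 higher (median -0.85), the respiratory chain 23 and 4 (median -0.87), the proteasome 28 and 0 (median -1.05) and mitochondrial ribosomes 33 and 12 (median -0.28), and the median of the cytosolic ribosomal proteins was -0.96. PRE2, a catalytic proteasome subunit, was at -2.89 ± 0.19, and the bc1 complex subunit QCR7 at -3.20 ± 0.22.

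Glycolytic genes were low in the pellet beyond their length. Across 5787 genes, however, the deviation from the length curve also fell with the mean CPM (rho -0.29). Whether this or any other list differed from genes of like level was not tested. Of 17 genes of glycolysis and ethanol formation 13 were lower and 0 higher (median -1.85), and all 17 were lower in the second fit. TPI1, triose phosphate isomerase, had 606 and 358 CPM in the pellets, against 4762 and 3066 CPM in the soluble libraries (-3.02 ± 0.24, adjusted p = 7.86e-10). ADH1, which makes ethanol, was at -2.40 ± 0.20 and the enolase ENO2 at -2.38 ± 0.22. The actin gene ACT1 had 267 and 296 CPM in the pellets, against 554 and 576 CPM in the soluble libraries (-1.01 ± 0.16), and 16 of 20 genes of the actin cytoskeleton were lower and 2 higher.

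Heat-induced chaperone mRNAs were mainly low in the pellet, at a median coding length of 1536 bases. Of 27 chaperone genes of the heat shock factor Hsf1, 21 were lower and 1 higher (median -1.44), and in the second fit 23 were lower and 0 higher. HSP104 (YLL026W, chromosome XII, 88623 to 91349), the disaggregase, had 7410.2 and 8451 CPM in the pellets, against 15209 and 18162 CPM in the soluble libraries, 2.10-fold lower (-1.07 ± 0.26, adjusted p = 0.00088). Against genes near its 2727 bases it was at -2.50, and both pellets lay below both soluble libraries. FES1, an exchange factor of Hsp70, was at -2.93 ± 0.32 and SIS1, a J-domain co-chaperone, at -2.65 ± 0.31. SSA4 had 9491 and 11001 CPM in the pellets, against 21686 and 28529.8 CPM in the soluble libraries, and was not called (-1.29 ± 0.58, adjusted p = 0.0543). SSA4 was called lower with the replicate block (-1.28, adjusted p = 5.16e-06), from the 4 libraries alone (-1.34, adjusted p = 0.000956), with DESeq2 (-1.34, adjusted p = 0.0184), with its size factors in edgeR (adjusted p = 0.0437), among genes of at least 32 CPM (-1.39, adjusted p = 0.03) and with length removed (-2.11, adjusted p = 0.00424). The small heat shock protein gene HSP26 was lower (-2.50 ± 0.89, adjusted p = 0.02), and lost the call without pellet replicate 1 (-2.80), without pellet replicate 2 (-2.26) or without soluble replicate 1 (-2.42). With length removed HSP26 was not called either (-1.48, adjusted p = 0.13). HSP42, another small heat shock protein, had 1402 and 1824 CPM in the pellets, against 1069 and 1215 CPM in the soluble libraries (0.50 ± 0.72, adjusted p = 0.539, not called). The 1 chaperone gene called higher was SSC1, a mitochondrial Hsp70 (0.37), named after its value was seen.

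General stress genes of the transcription factors Msn2 and Msn4 lay on both sides. Of 30, 18 were lower and 8 higher (median -1.19), and in the second fit 21 were lower and 3 higher (median -0.97), HSP12, TMA10 and HOR7 being the lowest in the first. The 8 higher ones included GDB1, the glycogen debranching enzyme (1.85, 4611 bases), and GPH1, glycogen phosphorylase (1.07, 2709 bases), both named after their values were seen. Genes repressed by glucose had 12 of 22 higher and 4 lower (median 0.48), but 5 higher and 3 lower in the second fit (median 0.10). ICL1, isocitrate lyase, had 113 and 135 CPM in the pellets, against 41.5 and 42.9 CPM in the soluble libraries (1.55 ± 0.13).

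The machinery of translation was spread over both fractions. Of 28 initiation factor genes 8 were higher and 14 lower (median -0.52), and in the second fit 4 were higher and 18 lower. TIF11, which encodes eIF1A, was at -3.37 ± 0.19 and TIF35, a small subunit of eIF3, at -2.81 ± 0.17. PAB1 (YER165W, chromosome V, 510373 to 512106), the poly(A)-binding protein, had 786 and 865 CPM in the pellets, against 254 and 243 CPM in the soluble libraries, 3.32-fold higher (1.73 ± 0.17, adjusted p = 1.74e-08) and 1.11 above genes of its length. Both PAB1 pellets stood clear of both soluble libraries. Of 11 elongation and termination factor genes 2 were higher and 7 lower, and 1 and 7 in the second fit (median -0.37 and -1.08), with the elongation factor gene TEF2, whose counts cannot be told from those of its near-identical copy TEF1, at -2.71 ± 0.21. Ribosome biogenesis factors had 16 of 69 higher and 36 lower (median -0.48), and 6 and 46 in the second fit (median -1.05), with UTP10, a long subunit of the small-subunit processome, at 2.85 ± 0.14 and LOC1 at -3.12 ± 0.47.

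Aminoacyl-tRNA synthetase genes, whose products charge tRNAs, spread more than 5 log2 units at a median coding length of 1914 bases. Of 20, 7 were higher and 11 lower (median -0.82), and in the second fit 3 were higher and 16 lower. ILS1, for isoleucine, had 3441 and 3896 CPM in the pellets, against 387 and 418 CPM in the soluble libraries (3.19 ± 0.16). CDC60, for leucine, was at 2.88 ± 0.14 and ALA1, for alanine, at 2.59 ± 0.13. At the other end, and named after their values were seen, were SES1 for serine (-2.01), GLN4 for glutamine (-1.69) and THS1 for threonine (-1.67). GLN4 has 2430 bases, and GLN4 had 397 and 394 CPM in the pellets, against 1160.0 and 1399.9 CPM in the soluble libraries, which put it 2.92 below genes of its length. ILS1 lay 1.48 above the same curve.

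RNA-binding proteins of stress granules and P-bodies had 13 of 25 genes higher and 9 lower (median 0.36), and in the second fit this turned to 11 higher and 12 lower (median -0.094). XRN1, the main cytoplasmic 5' to 3' exonuclease, had 913 and 1243 CPM in the pellets, against 118 and 141 CPM in the soluble libraries (3.06 ± 0.15). DCP1, a short subunit of the decapping enzyme, had 11.4 and 10.6 CPM in the pellets, against 73.5 and 78.0 CPM in the soluble libraries (-2.78 ± 0.19). Other groups with more genes higher than lower were spindle pole and coiled-coil genes (26 of 35 higher, 3 lower, median 1.29), nuclear pore and transport genes (23 of 39 higher, 7 lower, median 0.93) and plasma membrane transporters (32 of 49 higher, 1 lower, median 0.72). In the second fit these stood at 13 higher and 10 lower, 10 and 20, and 11 and 14, so the surplus of higher genes was smaller or turned round once length was removed. NUP170, of the inner ring of the pore, was at 2.92 ± 0.14, the nuclear import receptor PSE1 at 3.14 ± 0.14, MYO2, a type V myosin, at 3.36 ± 0.18 and the drug pumps SNQ2 and YOR1 at 2.71 ± 0.14 and 2.47 ± 0.14. PMA1, the proton pump of the plasma membrane, had 10426 and 11493 CPM in the pellets, against 5797 and 5621 CPM in the soluble libraries (0.94 ± 0.17, adjusted p = 3.51e-05). With length removed it was at -0.50.

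Of 8 mitochondrially encoded mRNAs COX1, COX2 and ATP6 were higher and 0 lower (median 0.84). In the second fit COX2, ATP6 and ATP8 (1.56, named after its value was seen) were higher, and COX1 was not called (0.46, adjusted p = 0.153). With the GC trend removed the list's median turned to -0.22, with 3 higher and 1 lower. COX2, a subunit of cytochrome oxidase, had 1008 and 661 CPM in the pellets, against 457 and 268 CPM in the soluble libraries (1.20 ± 0.29). ATP6 (1.46 ± 0.62, adjusted p = 0.0439) lost its call without pellet replicate 1 (1.00), soluble replicate 1 or soluble replicate 2 (1.32), and with the replicate block (1.41, adjusted p = 0.0964), and COX1 lost its call without pellet replicate 1 (0.69) or soluble replicate 2 (0.65). The remaining lists held genes on both sides: amino acid synthesis had 15 of 58 higher and 36 lower, endoplasmic reticulum translocation and glycosylation 12 of 34 higher and 17 lower, lipid and sterol synthesis 10 of 28 higher and 9 lower, cell wall proteins 15 of 37 higher and 10 lower, and vacuolar proteins 12 of 22 higher and 7 lower. In the second fit the balance turned round for the endoplasmic reticulum list, with 12 higher and 8 lower (median 0.11, against -0.26 in the first), and for vacuolar proteins, with 5 higher and 6 lower (median -0.028, against 0.48). Amino acid synthesis had 7 higher and 38 lower there, lipid and sterol synthesis 8 and 8, and cell wall proteins 16 and 10. The median for lipid and sterol synthesis was -0.06 and turned to 0.16 without TMM scaling, a setting that moved the median of all genes by 0.21.

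**Figure D3:**
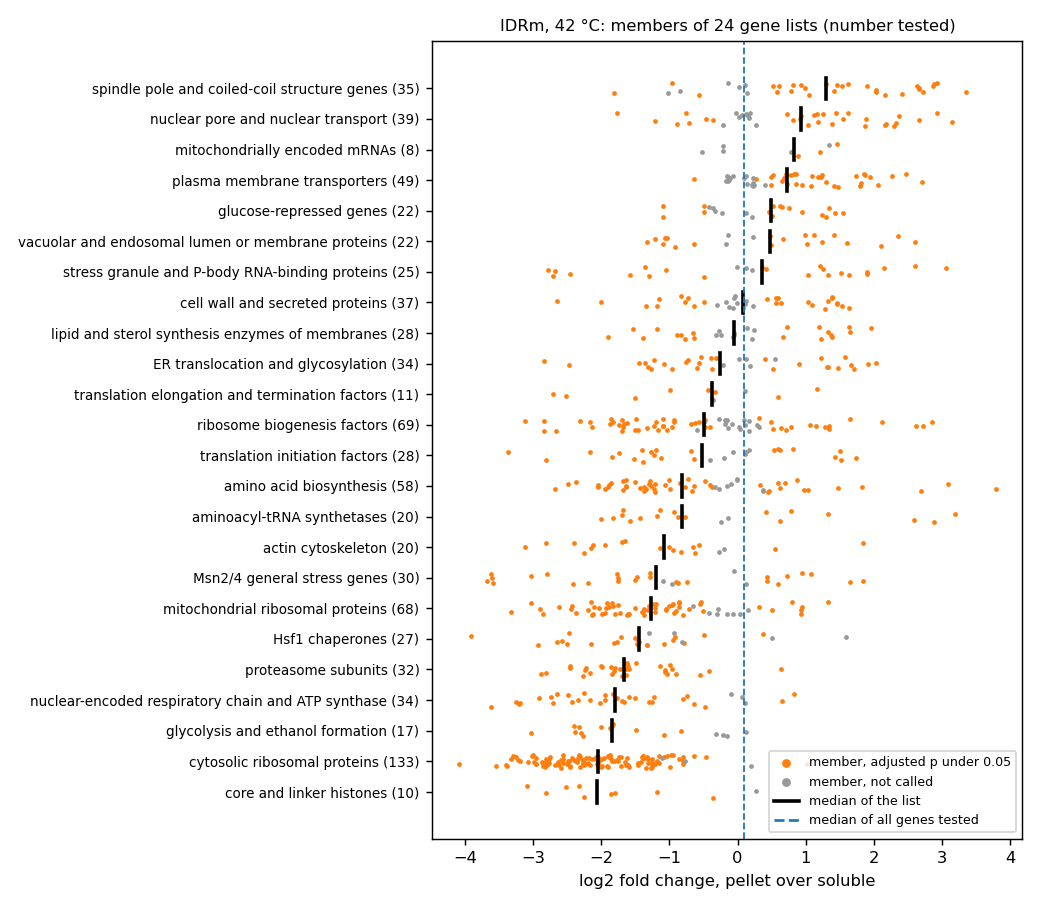
Log2 fold change of pellet over soluble level in IDRm cells at 42 °C for the members of 24 gene lists (number tested in brackets); each point is a gene, coloured where the adjusted p is under 0.05, the bar is the list's median, and the dashed line is the median of all genes tested. Histones and ribosomal proteins have the lowest medians, -2.06 and -2.05, and spindle pole genes the highest, 1.29.

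How much of the mRNA was insoluble was estimated from the total RNA of the same strain and temperature, by finding the weights of pellet and soluble levels that best add up to the total levels over all well-counted genes. At 42 °C the estimate for IDRm was 22.8% in replicate 1 and 18.3% in replicate 2, a mean of 20.6% ± 3.17 (SD, n = 2). For IDRm it was 7.90% and 3.84% at 30 °C and 13.2% and 14.0% at 40 °C. WT had 29.4% and 37.2% at 42 °C, both above the IDRm values, but WT stood at 22.3% and 18.1% already at 30 °C. The fit was poorest for WT at 30 °C, where the 2 weights added up to 0.83 and 0.92, against 1.02 and 1.01 for IDRm at 42 °C. All these shares are estimates without a test, they rest on 2 values a group, and total and fraction libraries were scaled separately. By the same weights, the insoluble percentage of single genes in IDRm at 42 °C had a median of 30.1% in replicate 1 and 21.8% in replicate 2 over 3876 genes, and 10% of genes lay under 9.09% and 5.96%. RPA190 was at 83.7% and 79.7% at 42 °C, against 11.5% and 5.84% at 30 °C. PAB1 was at 52.6% and 46.9% at 42 °C, against 8.81% and 3.63% at 30 °C. STF2 was at 2.54% and 1.21% at 42 °C, against 1.69% and 1.18% at 30 °C, and HSP104 was at 14.9% and 10.3% at 42 °C, against 7.21% and 3.63% at 30 °C. In RPA190, PAB1 and HSP104 both estimates at 42 °C exceeded both at 30 °C, and in STF2 the estimates overlapped.

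**Figure D4:**
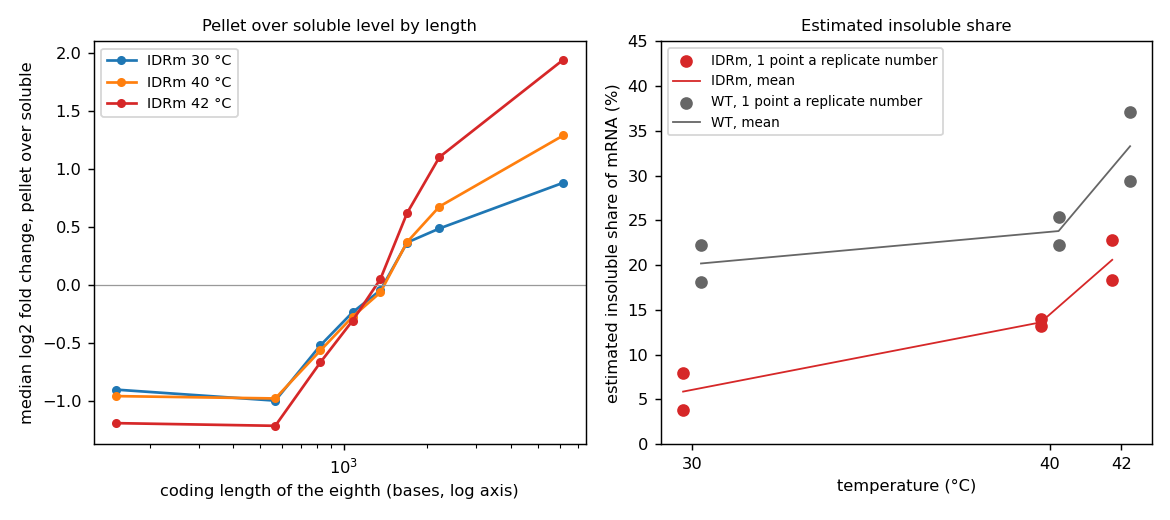
Left, median log2 fold change of pellet over soluble level in 8 groups of genes by coding length (bases, log axis) in IDRm at 30, 40 and 42 °C; right, estimated insoluble share of mRNA in percent at each temperature, 1 point a replicate number and lines through the means. The lines on the left are steepest at 42 °C, and on the right IDRm stands at 7.90% and 3.84% at 30 °C, 13.2% and 14.0% at 40 °C and 22.8% and 18.3% at 42 °C.

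Whether heat changed the distribution was tested as the shift of the log2 pellet over soluble level between 42 and 30 °C. In IDRm cells 2282 of 6141 genes (37.2%) were called, 1441 (23.5%) with a shift towards the pellet and 841 (13.7%) towards solution. With DESeq2's size factors in place of TMM the split was 1132 and 1225, and without scaling factors 1643 and 571, while the median of all genes moved by -0.17 and 0.13, so the balance of the directions depends on the scaling. The order by length was present at 30 °C (rho 0.54) and 40 °C (0.56) and steeper at 42 °C. At 30 °C the medians of the length groups ran from -0.90 in the shortest to 0.88 in the longest. The median shift was -0.24 in the shortest group and 0.93 in the longest.

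RPA190 had the largest shift towards the pellet among the named genes. At 42 °C its levels were 2694 and 3267 CPM in the pellets and 187 and 206 CPM in the soluble libraries, against 4159 and 3809 CPM in the pellets and 2929 and 2566 CPM in the soluble libraries at 30 °C, a shift of 3.38 ± 0.22 (adjusted p = 1.61e-09). Each RPA190 soluble library was more than 10-fold lower at 42 °C, and the pellets were lower by less than 2-fold. PSE1 (3.18 ± 0.18), ACC1 (3.02 ± 0.22), SEC21, a coat protein of Golgi vesicles (3.01 ± 0.16), and GLT1 (2.97 ± 0.20) followed. PAB1 shifted by 1.77 ± 0.24 (adjusted p = 1e-05): at 30 °C its levels were 1161 and 1048 CPM in the pellets and 1101 and 1163 CPM in the soluble libraries, with overlapping ranges. DED1 (-0.18 ± 0.19, adjusted p = 0.494) and PMA1 (0.33 ± 0.23, adjusted p = 0.288) were not called.

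The largest shifts towards solution among the named genes were in genes induced by heat. TFS1, an inhibitor of carboxypeptidase Y, had 130.2 and 98.0 CPM in the pellets and 579.5 and 468 CPM in the soluble libraries at 42 °C, against 62.7 and 68.7 CPM in the pellets and 38.5 and 45.8 CPM in the soluble libraries at 30 °C, a shift of -2.84 ± 0.22 (adjusted p = 2.45e-08). The pellets of TFS1 thus lay above its soluble libraries at 30 °C and below them at 42 °C. EGO4, a small protein (-2.70 ± 0.86, adjusted p = 0.0247), SPI1, a cell wall protein (-2.66 ± 0.38), RTC3 (-2.56 ± 0.72) and RTS3 (-2.43 ± 0.37) were next. EGO4 lost its call without any 1 of the IDRm libraries at 30 °C (-2.65 to -2.75) and without soluble replicate 1 (-2.19) or pellet replicate 2 (-2.20) at 42 °C, and RTC3 without that pellet (-2.30). EGO4 had 44.6 and 18.5 CPM in the pellets and 471 and 255 CPM in the soluble libraries at 42 °C, against 4.49 and 4.83 CPM in the pellets and 8.45 and 8.11 CPM in the soluble libraries at 30 °C. In total RNA these 5 genes were higher at 42 °C by 3.03 (TFS1), 4.89 (EGO4), 4.27 (SPI1), 5.79 (RTC3) and 4.29 (RTS3) on the log2(CPM + 1) scale.

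Over all genes the shift ran against heat induction. The 60 genes whose total level was higher at least 16-fold at 42 °C had a median shift of -1.27, with 1 towards the pellet and 23 towards solution. The 256 genes up 4 to 16-fold had a median of -0.66 and the 594 genes up 2 to 4-fold one of -0.45. Against genes of the same length, the genes up 4 to 16-fold lay at 0.01 at 42 °C and 0.55 at 30 °C. Those up 2 to 4-fold lay at 0.08 and 0.52, and those up at least 16-fold at -0.98 and 0.34. Genes whose total level was 2 to 4-fold lower had a median shift of 0.83, with 291 of 495 towards the pellet and 16 towards solution, and the 35 genes down at least 4-fold one of 0.63. Across 6077 genes rho between the change in total RNA and the shift was -0.50, and -0.39 after removal of the length trend (5755 genes). With the deviation from the length curve at 42 °C alone, rho was -0.07 (5755 genes). Hsf1 chaperones had 13 of 27 genes shifted towards solution and 0 towards the pellet (median -0.95), and Msn2 and Msn4 genes 15 of 30 and 3 (median -1.24). Of the glycolysis genes 12 of 17 shifted towards solution and 1 towards the pellet (median -0.94). The list's median change in total RNA was 0.22, and TPI1, ADH1 and ENO2 were 0.26, 0.15 and 0.07 higher. How the shift of this list relates to its induction was not tested. Nuclear pore and transport genes had 19 of 39 shifted towards the pellet and 3 towards solution (median 0.51), and spindle pole genes 15 of 35 and 2 (median 0.70). With length removed, where 2006 of all genes (32.7%) shifted, 1021 towards the pellet and 985 towards solution, the nuclear pore and transport genes stood at 9 and 10 (median 0.01) and the spindle pole genes at 9 and 3 (median 0.16). At 30 °C the Msn2 and Msn4 genes had a median pellet over soluble level of 0.17, with 10 of 30 higher and 6 lower, where 34.5% of all genes were higher and 33.7% lower. HSP12 then had 1.47 and 2.36 CPM in the pellets, against 8.71 and 7.65 CPM in the soluble libraries.

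**Figure D5:**
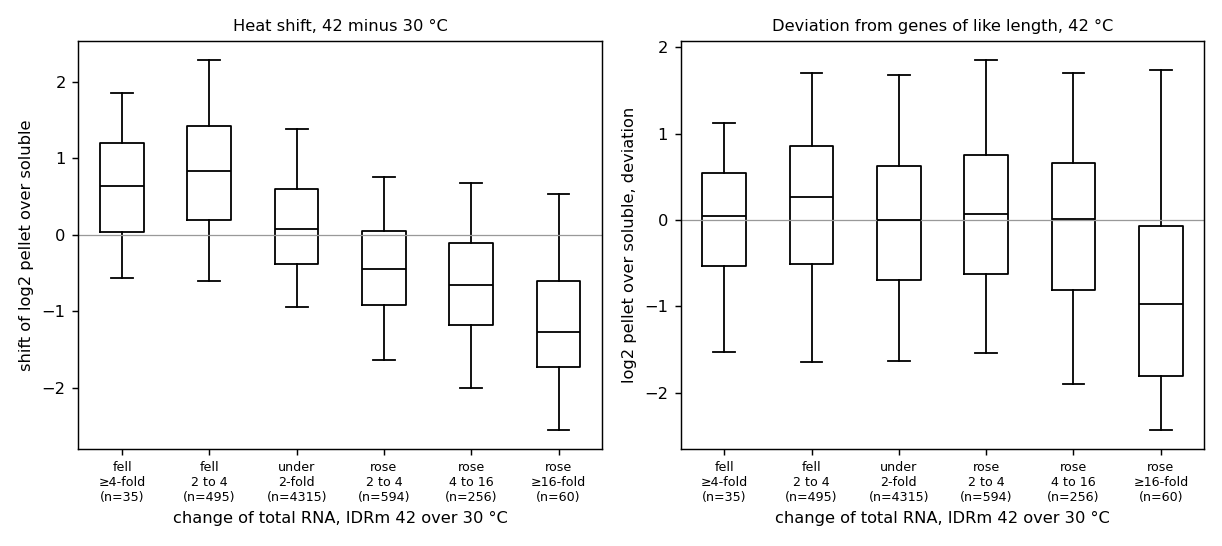
Genes grouped by the change of their total RNA in IDRm cells, 42 over 30 °C (number of genes under each box): left, the shift of the log2 pellet over soluble level between 42 and 30 °C; right, the deviation of the log2 pellet over soluble level at 42 °C from genes of the same length. Boxes span the quartiles with the median as a line and whiskers the 5th to 95th percentiles. The median shift is -1.27 in the group up at least 16-fold and 0.83 in the group 2 to 4-fold down. On the right the median is -0.98 in the group up at least 16-fold, 0.01 up 4 to 16-fold and 0.08 up 2 to 4-fold.

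Upstream windows of EGO4 and RTC3 are shown because their shifts were among the lowest and the sequence AGGGG, the stress response element bound by Msn2 and Msn4, occurs in them. Each window covers 300 bases, from 450 to 151 bases before the start codon, in the R64 reference from RefSeq, 5' to 3' on the plus strand, with AGGGG or its reverse complement CCCCT in capitals. The EGO4 window (chrXIV:692111-692410) holds 4 matches and the RTC3 window (chrVIII:280370-280669) 2.
EGO4: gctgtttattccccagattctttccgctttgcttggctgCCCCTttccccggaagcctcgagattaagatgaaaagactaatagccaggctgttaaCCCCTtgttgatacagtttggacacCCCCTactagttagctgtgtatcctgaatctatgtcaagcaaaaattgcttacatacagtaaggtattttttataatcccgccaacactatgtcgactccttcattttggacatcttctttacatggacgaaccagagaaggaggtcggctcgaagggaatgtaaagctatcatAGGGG
RTC3: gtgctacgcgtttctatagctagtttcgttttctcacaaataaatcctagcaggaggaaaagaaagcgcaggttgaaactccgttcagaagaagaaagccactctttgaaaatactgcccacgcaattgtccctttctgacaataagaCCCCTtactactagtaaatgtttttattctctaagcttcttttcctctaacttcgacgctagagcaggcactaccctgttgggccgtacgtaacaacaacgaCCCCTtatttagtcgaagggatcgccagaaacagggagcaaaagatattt

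AGGGG on either strand was present in 1403 of 6000 such windows (23.4%), in 24 of 30 of the Msn2 and Msn4 genes (80.0%) and in 11 of 27 Hsf1 genes (40.7%). Of the other 3 genes with the lowest shifts, SPI1 had 3 matches, RTS3 1 and TFS1 0. The 52 tested genes with at least 3 matches had a median shift of -0.54, with 20 (38.5%) called towards solution, and the 167 genes with 2 had -0.19 and 25.7%. Genes with 1 match had a median shift of 0.02 and genes with 0 matches one of 0.05, with 16.4% and 12.8% towards solution. Heat induction rose with the matches too. The median change of total RNA was 1.65 for at least 3 matches, 0.85 for 2, 0.18 for 1 and -0.04 for 0. Whether matches and shift are related apart from induction was not tested. A match is a description of these letters, and binding was not measured.

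Between 42 and 40 °C, 947 of 6141 genes (15.4%) shifted in IDRm cells, 690 (11.2%) towards the pellet and 257 (4.18%) towards solution. From the 8 libraries of these groups alone the balance was the other way, with 157 towards the pellet and 212 towards solution. FAS1, the beta subunit of fatty acid synthase, had 3406 and 4181 CPM in the pellets and 442 and 446 CPM in the soluble libraries at 42 °C, against 2773 and 2731 CPM in the pellets and 1748 and 1535 CPM in the soluble libraries at 40 °C, a shift of 2.35 ± 0.22. VIP1, an inositol pyrophosphate kinase (1.97 ± 0.21), VTC2, a subunit of the vacuolar polyphosphate polymerase (1.85 ± 0.16), APL5, of an adaptor complex (1.82 ± 0.24), and CDC60 (1.81 ± 0.18) followed. Ribosomal protein genes went the other way: 69 of 133 shifted towards solution and 0 towards the pellet (median -1.01). With length removed 51 shifted towards solution and 0 towards the pellet (median -0.71), where 263 of all genes shifted towards solution. Without single libraries the list's median ran from -1.37 to -0.73. RPS15 and RPL15A, the second uncertain because of a near-identical paralog, shifted by -1.94 each, NSR1, a nucleolar protein, by -2.02 ± 0.40 and BDF2, a bromodomain protein, by -2.06 ± 0.36. The ribosomal protein list thus had a median log2 pellet over soluble level of -1.98 at 30 °C, -0.95 at 40 °C and -2.05 at 42 °C, with 129, 88 and 129 genes lower in the pellet. Of all genes 33.7% were lower in the pellet at 30 °C (68.2% called) and 35.2% at 40 °C (71.8% called). The count of calls depends on single libraries: it was 560 without the 42 °C soluble replicate 1, 587 without the 42 °C pellet replicate 2, 579 without the 40 °C pellet replicate 1 and 570 without the 40 °C soluble replicate 1.

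The pellet over soluble levels of IDRm and WT at 42 °C ran closely together across genes. WT had 4856 genes (79.1%) called between pellet and soluble RNA, and the log2 fold changes of the strains, which share no libraries, had a rho of 0.94 across 6141 genes. The deviations from the length curve had a rho of 0.89 (5787 genes). Tested directly, the strain difference (IDRm minus WT) of the pellet over soluble level was called for 427 of 6141 genes (6.95%), 286 (4.66%) higher and 141 (2.30%) lower in IDRm. This count rests on the spread shared over all groups and on single libraries. The same edgeR test on the 8 libraries alone called 0 genes, with 663 at an unadjusted p under 0.05. Without WT pellet replicate 1 the count was 188, without WT pellet replicate 2 it was 208, without WT soluble replicate 1 it was 1521, and without TMM scaling 153 were higher and 603 lower, with the median of all genes moved by -0.27.

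PAB1 was among the genes further towards the pellet in IDRm. Its log2 pellet over soluble level was 1.73 in IDRm and 0.20 in WT at 42 °C, a difference of 1.53 ± 0.24 (adjusted p = 0.000472), and -0.04 in IDRm and 0.02 in WT at 30 °C. DED1 was at 0.13 in IDRm and -0.67 in WT at 42 °C (difference 0.79 ± 0.19, adjusted p = 0.0155), a call lost without WT pellet replicate 1 (0.75) or replicate 2 (0.82). The highest differences were RPS12 (2.67 ± 0.70), URA6, of pyrimidine synthesis (2.46 ± 0.28), RPL1A, whose sequence is near-identical to a paralog (2.35 ± 0.53), SCW10, a cell wall protein (1.96 ± 0.20), and VIP1 (1.96 ± 0.21). RPL1A lost its call without WT pellet replicate 1 (2.39), WT pellet replicate 2 (2.30) or WT soluble replicate 2 (1.89). RPS12 lost its call without any 1 of these (2.81, 2.52 and 2.06), and also without IDRm pellet replicate 1 (2.23) or IDRm soluble replicate 2 (2.08). Of 133 ribosomal protein genes 34 were higher in IDRm and 1 lower (median 0.88), and with length removed 59 were higher and 1 lower, where 6.55% of all genes were higher and 3.68% lower. The list's median pellet over soluble level was -2.05 in IDRm and -3.09 in WT. Without WT soluble replicate 2, the library with the fewest counts, 14 of 134 were higher and 1 lower (median 0.46).

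The lowest strain differences were RPP0 (-3.17 ± 0.29, adjusted p = 2.43e-06), a stalk protein of the ribosome, ILV6 (-2.03 ± 0.22), of branched-chain amino acid synthesis, PIB2 (-2.02 ± 0.27), of vacuolar signalling, ACH1 (-1.93 ± 0.28), an acyl-CoA transferase, and KRE1 (-1.69 ± 0.20), a cell wall protein. Differences of like size were present at 30 °C, where they are given without a test: -2.54 for RPP0, -2.31 for ILV6, -1.77 for PIB2, -1.68 for ACH1 and -1.83 for KRE1. RPP0 (YLR340W, chromosome XII, 805887 to 806825) ran from 1585 to 2355 CPM over the 6 IDRm soluble libraries of all temperatures, against 252 to 379 CPM over the 6 WT soluble libraries. In the pellets it ran from 257 to 961 CPM in IDRm, against 468 to 961 CPM in WT, and in total RNA from 1108 to 1538 CPM in IDRm, against 1315 to 2349 CPM in WT. RPP0 was thus low in WT soluble RNA in every library, and below every WT total library, which were scaled apart. Of the 141 genes lower in IDRm, 29 had all 6 IDRm soluble libraries above all 6 WT soluble libraries, against 74 of all 6141 genes. The 42 °C soluble libraries counted here also entered the call of these genes, so part of the excess follows from the selection. Among the 5 highest genes the 30 °C difference was -0.12 for RPS12, 0.69 for URA6, -0.10 for RPL1A, -0.25 for SCW10 and 0.42 for VIP1, and for PAB1 it was -0.06. Of the 286 genes higher in IDRm at 42 °C, 236 (82.5%) had a difference above 0 at 30 °C too, against 59.1% of all genes. Their median difference was 0.97 at 42 °C and 0.24 at 30 °C, where 2 of them exceeded 1 and the median of all genes was 0.08. Of the 286, 23 had all 6 IDRm soluble libraries below all 6 WT soluble libraries, against 56 of all genes. The 42 °C soluble libraries entered this call as well.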

How the data were processed

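RNA sequencing counts of 4 IDRm libraries at 42 °C (pellet and soluble RNA) were compared, with other groups of the 36 libraries beside them. The submitters' processing notes name bcl2fastq 2.19.1, STAR 2.5.2b and the genome build R64. The authors deposited unnormalised whole-number counts of reads for each gene. How reads were counted, whether by strand and with which annotation is not given in the sources used here, so values of near-identical paralogs and of overlapping or antisense genes are uncertain. Of 6697 genes, 6141 passed filterByExpr at a minimum count of 10. The 354 tested genes that did not match the RefSeq annotation stayed in the tests and are not named.

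The 24 pellet and soluble libraries were fitted together with 1 term for each of 12 groups (12 residual degrees of freedom), TMM scaling and edgeR's robust quasi-likelihood test (edgeR 4.0.16, limma 3.58.1, R 4.3.3), with Benjamini-Hochberg adjustment over all genes tested. The joint fit lends the 2 libraries of a group the spread of all 12 groups. A value after ± is a standard error on the log2 scale except where SD is written, and positive values mean a higher level in the pellet. The length curve was a lowess smoother with a span of 0.3, and the fit with length removed entered it as an offset. The insoluble share came from genes with at least 50 counts in the total, pellet and soluble library of the same group and replicate number and takes each fraction library to be a fair sample of that fraction. That these 3 libraries came from 1 culture is assumed, since the labels do not say so. Total RNA was TMM-scaled apart from the fractions, so levels of total and fraction libraries are not strictly comparable, and changes in total RNA are on the log2(CPM + 1) scale. The steps were tested on simulated counts. Alternatives were DESeq2 1.42.0, other scalings and filters, a replicate block, removal of GC or length trends, and leaving out each library.

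The comparison, gene lists and rules were chosen with earlier results of these data known. Named genes were protein-coding genes that were called and had a mean of 32 CPM or more, the 8 at either end of the ranking, together with the 3 largest called changes in each list, 10 genes always named (DED1, PAB1, PMA1, RPL3, HSP104, SSA4, HSP42, HSP26, HSP12 and ACT1), and for each shift or strain difference the 5 highest and 5 lowest, of which 1 is not reported here. A gene outside this rule is said to be named after its value was seen. Replicates of the 4 libraries differed by more than sampling noise, so none was counted as a duplicate.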

Additional observations from a re-analysis of the deposited data

Results flagged for a closer look

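Results in which the pellet over soluble difference of one group of libraries differed from that of another, by a test of the difference itself, are collected here as values.

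Between 42 and 30 °C in IDRm cells, 2282 genes differed in their pellet over soluble level. Towards the pellet were RPA190 (3.38), PSE1 (3.18), ACC1 (3.02), SEC21 (3.01), GLT1 (2.97) and PAB1 (1.77). Towards solution were TFS1 (-2.84), EGO4 (-2.70), SPI1 (-2.66), RTC3 (-2.56), RTS3 (-2.43) and ACT1 (-0.87).

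Between 42 and 40 °C, 947 genes differed. Towards the pellet were FAS1 (2.35), VIP1 (1.97), VTC2 (1.85), APL5 (1.82), CDC60 (1.81) and PMA1 (0.88), and towards solution BDF2 (-2.06), NSR1 (-2.02), RPS15 (-1.94), RPL15A (-1.94) and RPL3 (-1.13). PMA1 lost its call without 40 °C soluble replicate 1 (0.77), 40 °C pellet replicate 2 (0.87) or 42 °C pellet replicate 2 (0.81), and with length removed (0.40). Of the 133 ribosomal protein genes tested 69 shifted towards solution, against 257 of all 6141 genes (4.18%). With length removed these counts were 51 and 263.

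Between IDRm and WT at 42 °C, 427 genes differed. Higher in IDRm were RPS12 (2.67), URA6 (2.46), RPL1A (2.35), SCW10 (1.96), VIP1 (1.96), PAB1 (1.53) and DED1 (0.79), and lower were RPP0 (-3.17), ILV6 (-2.03), PIB2 (-2.02), ACH1 (-1.93) and KRE1 (-1.69). For RPP0, ILV6, PIB2 and KRE1 each of the 6 IDRm soluble libraries of all temperatures lay above each of the 6 WT soluble libraries, RPP0 at 1585 to 2355 CPM in IDRm, against 252 to 379 CPM in WT. For ACH1 the ranges overlapped, with 70.8 to 557 CPM in IDRm, against 18.4 to 135 CPM in WT. The reason was not tested.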

How the results depend on the processing

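The count of genes called between pellet and soluble RNA of IDRm at 42 °C lay between 3332 and 4907 over all alternatives, within 1.5 times of 4830. Among its named genes, removal of the length trend reversed REA1 (-0.042), DSE4 (-0.12), HMG2 (-0.0070), DED1 (-0.58) and PMA1 (-0.50), and with the replicate block as well REA1 (-0.038), DSE4 (-0.12), HMG2 (-0.0038), DED1 (-0.57) and PMA1 (-0.49). For the shift of 42 against 30 °C, PMA1 was -0.43 and -0.42 and RPL3 0.022 and 0.020 in those fits. RPL3 was 0.076 without TMM factors and -0.27 to 0.12 without single libraries. The shift of 42 against 40 °C gave 369 calls from its own libraries alone and 560 to 1420 without single libraries. There DED1 was -0.033 from its own libraries, -0.071 with length removed and -0.073 with the block as well, and without single libraries PAB1 ran from -0.032 to 0.43 and HSP104 from -0.23 to 0.023. The strain difference gave 756 calls without TMM factors, 659 with DESeq2, 0 from its own libraries, 735 with the replicate block, 752 with length removed and the block, and 188 to 1521 without single libraries. HSP104 was -0.046 and PMA1 -0.093 without TMM factors, and without single libraries PMA1 ran from -0.051 to 0.40 and SSA4 from -0.50 to 0.25. The labels do not say that a replicate number marks 1 culture, so the block is given as an alternative. Deviations of same-numbered pellet and soluble libraries correlated at 0.56 in IDRm at 42 °C, the group studied here. In the other groups they correlated at -0.11 to 0.27. The block called 4907, 2591 and 1328 genes in the first 3 comparisons. The cause of these changes was not tested. With 2 libraries a group, single genes rest on the spread borrowed from other groups, and genes with few counts were not tested.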

Other observations

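Genes of membrane proteins were compared by the number of hydrophobic stretches in the protein translated from the reference coding sequence, counted as windows of 19 residues with a mean Kyte-Doolittle hydropathy of at least 1.6. In IDRm at 42 °C the 295 genes with at least 6 such stretches had a median log2 pellet over soluble level of 1.07, with 233 higher and 5 lower, where 41.3% of all genes were higher and 37.4% lower. The 4029 genes with 0 stretches had a median of -0.20. Set against genes of the same length, the medians were 0.26 for at least 6 stretches, 0.43 for 3 to 5, 0.34 for 2, 0.17 for 1 and -0.11 for 0. The count used no annotation of membrane proteins, and no test was made.

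Several long genes were low in the pellet, and all named here were picked after their values were seen. MRD1, of ribosome assembly (2664 bases), lay 2.85 below genes of its length, HIS4, of histidine synthesis (2400 bases), 2.71 below, and YEF3, a translation elongation factor (3135 bases), 2.66 below. At the other end RGM1 (636 bases) lay 2.82 above and CSA1 (666 bases) 2.74 above.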
